A study of Mus musculus with 12 samples.

Results

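The citrate cycle enzymes described here are 9 genes that encode the enzymes, or subunits of the enzymes, that turn acetyl groups into carbon dioxide and reduced cofactors in the mitochondrial matrix. They are Cs, Idh3a, Idh3b, Idh3g, Ogdh, Dlst, Sdha, Sucla2 and Mdh2. They were chosen by symbol, and not by their values, from the 10435 genes tested, though earlier results of these data were known. The array carries 27 probe sets annotated to 1 of these symbols alone. Of these, 22 were bright enough to be tested, and all 9 genes kept at least 1. Each gene is given by the brightest of its probe sets, on the mean of the 12 arrays, and the others serve as a check. Values are log2 signals, so a difference of 1 is a doubling.

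RNA came from the left ventricle of male C57BL/6 mice that were 7 weeks old at their first operation, with 3 mice and 3 arrays in each of 4 groups. DB3 mice had an aortic band for 4 weeks, had it taken off and were killed 3 days later. AB mice had a band, which loads the left ventricle with pressure, and were killed after 4 weeks. sDB3 mice had the sham of the banding and then the second operation, and were killed 3 days after it. sAB mice had the sham and were killed after 4 weeks, without a second operation. No group carried a transgene or a drug, per the labels. DB3 and sDB3 hearts were therefore 3 days older, and 1 operation further, than AB and sAB hearts.

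The cycle begins when citrate synthase (Cs) joins acetyl-CoA to oxaloacetate. Isocitrate is oxidised by the NAD-dependent isocitrate dehydrogenase, which is built from a catalytic subunit (Idh3a) and companion subunits (Idh3b and Idh3g). The 2-oxoglutarate dehydrogenase complex follows, with Ogdh as its first component and Dlst as its succinyl-transferring core. Succinyl-CoA ligase (Sucla2 is its ADP-specific subunit), succinate dehydrogenase (Sdha is its flavoprotein, which is also part of respiratory complex II) and malate dehydrogenase (Mdh2) complete the round. The heart draws most of its ATP from the reduced cofactors that this cycle feeds to the respiratory chain. ERR, NRF1 and GABP are transcription factors known to act on many genes of mitochondrial energy supply.

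Idh3g and Sdha had AB arrays below those of all 3 other groups, and Ogdh was the member that passed between the shams. Their promoters are shown as the 250 bases before a transcription start, from RefSeq (GRCm38.p6). They lie outside the coding sequence, at chrX:73786898-73787147 (minus strand) for Idh3g, at chr13:74350241-74350490 (minus strand) for Sdha and at chr11:6291347-6291596 (plus strand) for the first of 6 starts of Ogdh in the table. Capitals mark the only match within these windows to the 3 motifs searched.
Idh3g: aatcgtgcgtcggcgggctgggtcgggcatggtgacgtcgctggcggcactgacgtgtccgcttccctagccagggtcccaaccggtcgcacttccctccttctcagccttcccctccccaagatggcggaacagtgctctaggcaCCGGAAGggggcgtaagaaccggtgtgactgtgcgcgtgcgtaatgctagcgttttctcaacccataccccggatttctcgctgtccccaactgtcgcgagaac
Sdha: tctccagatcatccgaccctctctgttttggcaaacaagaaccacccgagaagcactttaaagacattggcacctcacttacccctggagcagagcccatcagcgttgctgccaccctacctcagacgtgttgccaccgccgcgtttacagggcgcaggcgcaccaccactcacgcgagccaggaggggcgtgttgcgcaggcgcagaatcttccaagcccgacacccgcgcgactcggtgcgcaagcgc
Ogdh: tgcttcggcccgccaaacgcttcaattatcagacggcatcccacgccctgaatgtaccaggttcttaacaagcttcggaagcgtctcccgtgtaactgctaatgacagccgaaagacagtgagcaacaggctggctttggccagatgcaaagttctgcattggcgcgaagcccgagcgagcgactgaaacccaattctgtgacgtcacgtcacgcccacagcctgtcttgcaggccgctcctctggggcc
Promoters of 8 members were in the table, with 13 starts in all; Idh3a was not among them. The letters searched, on both strands, were AAGGTCA for the ERR core, CGCATGC for the NRF1 core and CCGGAAG for the ETS/GABP core. The last stands 104 bases before the start of Idh3g and is held by 6.91% of the 32851 promoters of the same length. The NRF1 letters were found for 1 member gene, Ogdh, before 2 of its 6 starts, and are held by 3.02% of promoters. The ERR letters were found before no start of the 8 members, and are held by 4.08% of promoters. These matches describe the letters in the window, and binding was not measured.

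The arrays of the sAB group stood apart in 1 added control. The bacterial spike-in BioC averaged 10.2 to 10.5 on the 3 sAB arrays, against 8.28 to 8.60 on the other 9. BioB, another such control, averaged 8.49 ± 0.077 in DB3, 8.56 ± 0.19 in AB, 8.44 ± 0.13 in sDB3 and 8.76 ± 0.26 in sAB (SD, n = 3 each). The labels name no batch, so in any comparison with sAB an effect of how those arrays were handled cannot be told apart from the group. The tissue label fitted the markers: the 8 cardiomyocyte genes averaged 15.4 to 15.6 on every array. Their mean was 15.51 to 15.54 in DB3 and 15.45 to 15.53 in AB, below sDB3 (15.61 to 15.64) and sAB (15.56 to 15.59) without overlap. Genes of atrial muscle (Myl7, Myl4 and Sln) averaged 4.26 to 11.9 in DB3, 8.60 to 11.1 in AB, 9.09 to 12.1 in sDB3 and 6.14 to 8.43 in sAB, although the labels' protocol separates the atria from the ventricle. In a whole ventricle, fewer cells of a type and less RNA per cell cannot be told apart.

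All 9 enzymes were among the bright genes of the ventricle, with means over 12 arrays from 12.5 (Dlst) to 15.2 (Mdh2). On their brightest probe sets they varied little: the gap between the highest and the lowest group mean ran from 0.09 (Idh3b) to 0.36 (Sdha), which is at most 1.28-fold. Dimmer Idh3a probe sets differed more, by 0.96 and 0.81 between AB and sAB. In limma's F test over the 4 groups, 4 of 9 passed (Idh3a, Idh3g, Ogdh and Sdha), close to the 37.2% of all genes that did. The median gap of the 9 was 0.21, against 0.35 over all genes tested, and how the gap depends on signal level was not examined.

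**Figure D1:**
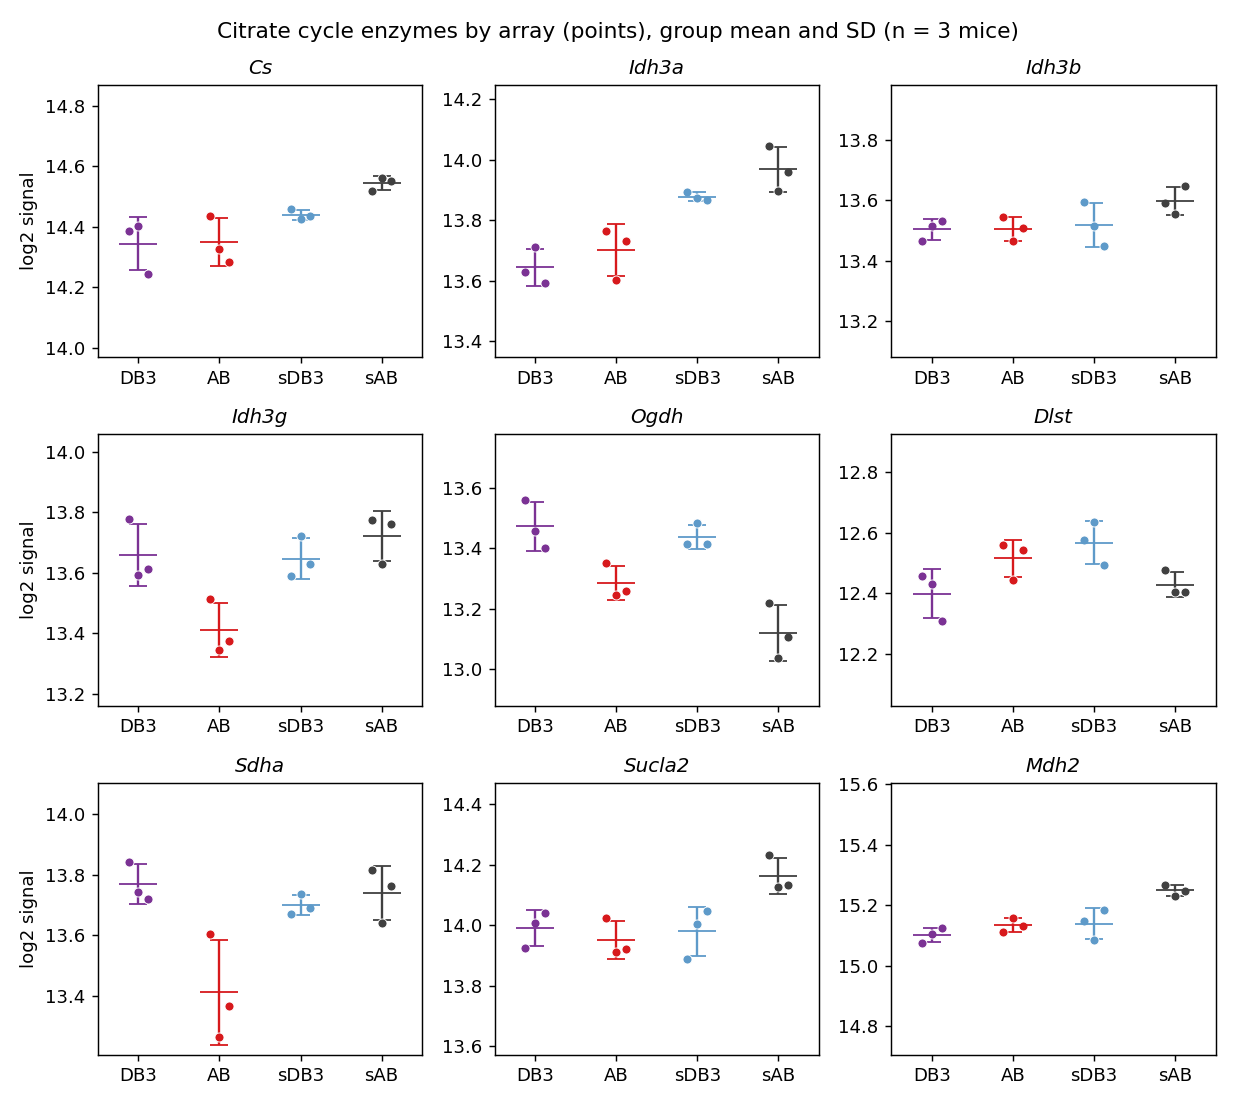
Log2 signal (y axis) of the 9 citrate cycle enzymes on each array (points), with group mean and SD (bars, n = 3 mice), for DB3, AB, sDB3 and sAB from left to right; every panel spans the same height. Sdha and Idh3g lie lowest in AB, at means of 13.41 each, Ogdh lies lowest in sAB (13.12), and Idh3b differs by at most 0.09 between groups.

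Banding for 4 weeks was set against its sham to ask how pressure load changes the ventricle. In AB against sAB, 3 of the 9 enzymes fell (Idh3a, Idh3g and Sdha) and 0 rose. Over all genes tested, 19.7% passed in either direction and 7.69% as lower. The 3 AB arrays lay below all 3 sAB arrays for 7 of the 9 enzymes, where 19.0% of all genes did so, and above them for 1, Ogdh, where 23.1% did. The members' median difference was -0.20 and that of all genes 0.01.

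The transcript of citrate synthase (Cs), the entry enzyme of the cycle, had 14.44, 14.33 and 14.28 in AB, against 14.52, 14.56 and 14.55 in sAB. All AB arrays were lower, and the difference of -0.20 ± 0.065 (SE) did not pass (limma adjusted p = 0.0579). The catalytic subunit Idh3a had 13.76, 13.60 and 13.73 in AB, against 14.05, 13.90 and 13.96 in sAB. It fell by 0.27 ± 0.067 (adjusted p = 0.0188), 1.20-fold. The companion subunit Idh3g, which takes part in allosteric control, had 13.51, 13.35 and 13.37 in AB, against 13.78, 13.63 and 13.76 in sAB. It fell by 0.31 ± 0.078 (adjusted p = 0.0189), 1.24-fold. Idh3b, the other companion subunit, averaged 13.51 ± 0.040 in AB and 13.60 ± 0.046 in sAB (SD, n = 3 each), a difference of -0.093 that did not pass (adjusted p = 0.308). The subunits of this 1 enzyme thus gave differences from -0.31 to -0.09, and whether they differ from each other was not tested.

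The succinate oxidising subunit Sdha had 13.60, 13.26 and 13.37 in AB, against 13.82, 13.64 and 13.76 in sAB. It fell by 0.33 ± 0.089 (limma adjusted p = 0.0258), 1.26-fold, the biggest change of the 9 in this comparison; the AB arrays spread most here (SD 0.17). The ligase subunit Sucla2 had 14.02, 13.91 and 13.92 in AB, against 14.23, 14.12 and 14.13 in sAB. All AB arrays were lower, by 0.21 on average, and the test was just missed (adjusted p = 0.0508). Mdh2, which regenerates oxaloacetate, averaged 15.13 ± 0.023 in AB and 15.25 ± 0.017 in sAB, a difference of -0.12 (adjusted p = 0.158). The 2-oxoglutarate dehydrogenase components lay on the other side of 0. Ogdh had 13.35, 13.25 and 13.26 in AB, against 13.22, 13.04 and 13.11 in sAB, a difference of 0.16 (adjusted p = 0.123), and Dlst differed by 0.087 (adjusted p = 0.396) with overlapping arrays.

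None of the 3 falls passed in every set of arrays. That of Idh3a did not pass without AB array 2 or without sAB array 1 (adjusted p up to 0.0765), and those of Idh3g and Sdha did not pass without AB array 2, AB array 3, sAB array 1 or sAB array 3 (adjusted p up to 0.0734 and 0.0979). Of the fibroblast markers, 2 of 7 were higher, as were 1256 of the 10435 genes tested, and the list means overlapped, at 11.03 to 11.48 in AB against 10.19 to 11.11 in sAB. Endothelial genes averaged 9.51 to 9.57 in AB against 9.33 to 9.34 in sAB, with 1 of 6 higher. The Actb signal from the 3′ minus the 5′ end of its transcript was 1.02 to 1.13 in AB and 1.20 to 1.26 in sAB. The part of these values in the falls was not tested.

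**Figure D2:**
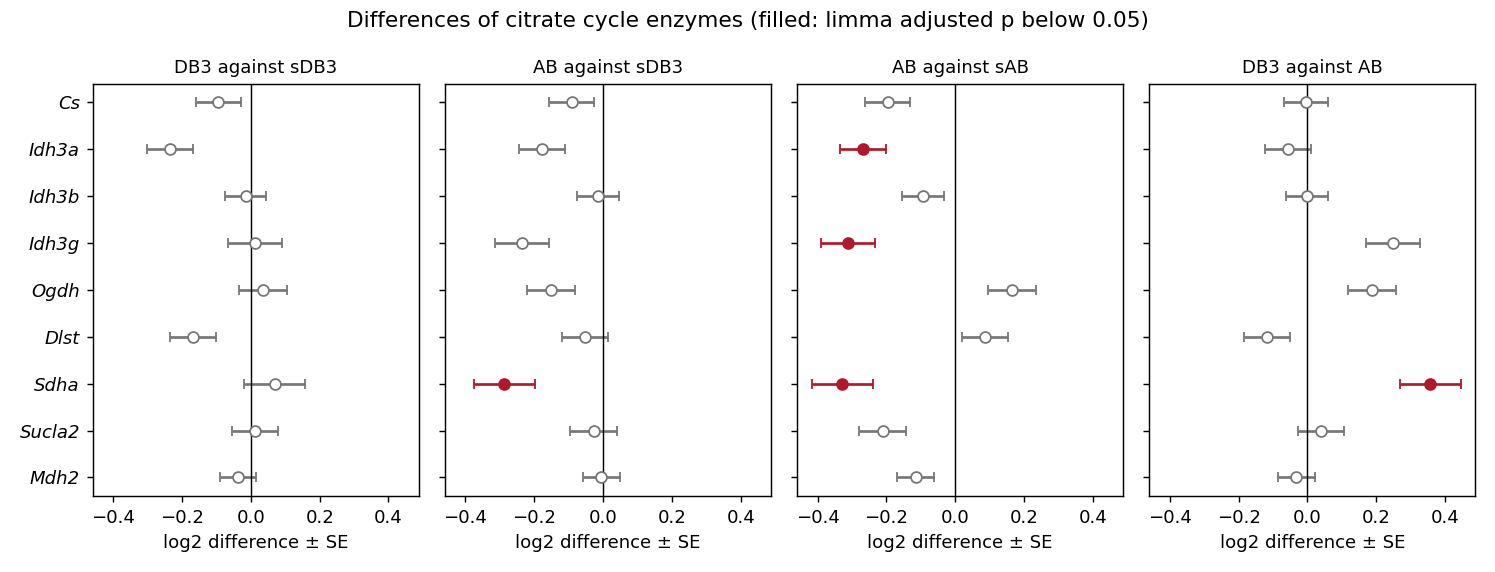
Log2 difference ± SE (x axis) of each enzyme (rows) for DB3 against sDB3, AB against sDB3, AB against sAB and DB3 against AB; filled points passed limma at an adjusted p below 0.05. Sdha is filled in 3 panels, at -0.29, -0.33 and 0.36, and no enzyme is filled in DB3 against sDB3.

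Because sAB stood apart in the added control, AB was also set against the later sham. These comparisons share the AB arrays and are not independent. In AB against sDB3 Sdha fell, by 0.29 ± 0.089 (limma adjusted p = 0.0414), and 0 of the 9 rose. In this comparison 22.0% of all genes passed, 4.69% as lower. Sdha had 13.60, 13.26 and 13.37 in AB, against 13.67, 13.74 and 13.69 in sDB3, and the groups did not overlap. Idh3g had 13.51, 13.35 and 13.37 in AB, against 13.59, 13.72 and 13.63 in sDB3, a difference of -0.24 ± 0.078 (adjusted p = 0.0523). Idh3a differed by -0.18 (adjusted p = 0.081) and Ogdh by -0.15 (adjusted p = 0.144), both without overlap, so that 4 of 9 had all AB arrays lower, against 10.5% of all genes. Cs differed by -0.091, Dlst by -0.052, Sucla2 by -0.028, Idh3b by -0.014 and Mdh2 by -0.0056, with overlapping arrays.

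All 9 differences from sDB3 were below 0, as were 32.1% of all genes, and the median was -0.09 for the members and 0.11 for all genes tested. The whole table was shifted here. Centring each array on its median moved this comparison by -0.15, turned 1809 genes higher and 489 lower into 738 higher and 1320 lower, and made 5 of the 9 lower: Sdha by -0.44 (limma adjusted p = 0.00996), Idh3g by -0.39 (0.00972), Idh3a by -0.33 (0.0128), Ogdh by -0.30 (0.0204) and Cs by -0.24 (0.0231). With quantile normalization 1 of 9 passed and 8 of 9 lay below 0. The fall of Sdha as deposited did not pass without any 1 of 8 of the 12 arrays (adjusted p up to 0.145). Of the cardiomyocyte genes, 2 of 8 were lower in AB than in sDB3, and of the endothelial genes 4 of 6 were higher, as were 17.3% of all genes. The Actb 3′ minus 5′ value was 1.02 to 1.13 in AB, below the 1.20 to 1.25 of sDB3. The part of these values in the members' differences was not tested.

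At 3 days after the band was removed, the Sdha arrays overlapped those of both shams. In DB3 against AB Sdha rose by 0.36 ± 0.089 (limma adjusted p = 0.0318), 1.28-fold, with 13.84, 13.74 and 13.72 in DB3 and 13.60, 13.26 and 13.37 in AB. It was the only one of 9 to pass, where 9.16% of all genes passed and 4.04% were higher. Idh3g had 13.78, 13.59 and 13.61 in DB3, against 13.51, 13.35 and 13.37 in AB, a difference of 0.25 (adjusted p = 0.0729). Ogdh had 13.56, 13.46 and 13.40 in DB3, against 13.35, 13.25 and 13.26 in AB, a difference of 0.19 (adjusted p = 0.125). For these 3 genes all DB3 arrays were higher, against 14.7% of all genes. The other 6 overlapped, at differences from -0.12 (Dlst) to 0.04 (Sucla2). The rise of Sdha did not pass without AB array 2, AB array 3 or any 1 of the DB3 arrays (adjusted p up to 0.123). With the probe sets of a gene averaged, Sdha gave 0.18 (adjusted p = 0.259) and Idh3g passed instead (0.24, adjusted p = 0.0461). The Actb 3′ minus 5′ value was 1.11 to 1.32 in DB3 and 1.02 to 1.13 in AB, and its part in these differences was not tested.

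In DB3 against sDB3, 0 of the 9 passed by limma, where 6.36% of all genes passed, 5.37% as higher and 0.997% as lower. An unadjusted p below 0.05 was reached by 2 of the 9, and the share of all genes at that level was not counted. Idh3a had 13.63, 13.71 and 13.59 in DB3, against 13.89, 13.87 and 13.87 in sDB3. All DB3 arrays were lower, by 0.23 ± 0.067 on average (adjusted p = 0.0633). Dlst had 12.46, 12.43 and 12.31 in DB3, against 12.57, 12.64 and 12.49 in sDB3, a difference of -0.17 (adjusted p = 0.148). Cs, with a difference of -0.095, was the third gene whose groups did not overlap, which 5.74% of all genes did on the lower side. Sdha differed by 0.069, with a 95% interval from -0.13 to 0.27, and Idh3g by 0.013, from -0.16 to 0.19. In AB against sAB the same genes gave -0.33, with an interval from -0.52 to -0.13, and -0.31, from -0.48 to -0.14. Setting these intervals side by side does not test whether the 2 comparisons differ. The direct test of that passed for neither gene (limma adjusted p = 0.0875 for Sdha and 0.108 for Idh3g). After centring, which moved this comparison by -0.13, Sdha lay at -0.06 and Idh3g at -0.12, and Idh3a (-0.36, adjusted p = 0.031) and Dlst (-0.30, adjusted p = 0.0458) passed as lower.

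The test of whether the effect of the operation differed between the arms was DB3 against sDB3 minus AB against sAB. It was passed by 0 of 9 enzymes in limma and by 6.04% of all genes. An unadjusted p below 0.05 was reached by 4 of 9, and the share of all genes at that level was not counted. Sdha had the biggest value, 0.40 ± 0.125 (adjusted p = 0.0875), followed by Idh3g at 0.32 ± 0.11 (adjusted p = 0.108). Dlst ran the other way, at -0.26 (adjusted p = 0.135). For neither gene was a difference between the arms shown by this test.

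The shams differed from each other as well. In sDB3 against sAB, Ogdh rose by 0.32 ± 0.070 (limma adjusted p = 0.014), 1.24-fold, and 0 of 9 fell; of all genes 17.8% passed, 5.49% as higher. Ogdh had 13.41, 13.48 and 13.42 in sDB3, against 13.22, 13.04 and 13.11 in sAB. It passed with any 1 array left out (adjusted p up to 0.0484), but not with the probe sets of a gene averaged (0.20, adjusted p = 0.0611), where Idh3a was lower instead (-0.39, adjusted p = 0.0137). The other Ogdh probe set, 1445632_at, gave 0.09 (adjusted p = 0.524). Sucla2 had 13.89, 14.00 and 14.05 in sDB3, against 14.23, 14.12 and 14.13 in sAB, a difference of -0.18 (adjusted p = 0.083). All sDB3 arrays were higher for 2 of 9 (11.1% of all genes) and lower for 4 of 9 (25.9%). With the mean of Myl7, Myl4 and Sln as a covariate, added after seeing the data, Ogdh differed by 0.27 (adjusted p = 0.0674).

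On the chosen probe sets as deposited, the order of the groups split the 9 enzymes. Cs, Idh3a, Idh3b and Mdh2 all ran sAB, sDB3, AB and DB3 from highest to lowest. The last step, DB3 against AB, was only -0.0042 for Cs and -0.0009 for Idh3b. Centring turned it to 0.017 and 0.020. The other Cs probe sets gave 0.08 each there, and those of Idh3b -0.16 and -0.08. The order of AB and DB3 is therefore not settled for these genes. For Cs and Mdh2 sAB stood above the rest and the other neighbours overlapped, for Idh3a sAB stood above sDB3 and sDB3 above AB, and for Idh3b all neighbours overlapped. Sdha and Idh3g had DB3, sDB3 and sAB overlapping at the top and AB alone at the bottom. Sucla2 had sAB alone at the top. Ogdh ran DB3, sDB3, AB and sAB, with only DB3 and sDB3 overlapping. Dlst ran sDB3, AB, sAB and DB3, with every neighbour overlapping. The order of the shams depends on the scaling: in sDB3 against sAB 7 of 9 lay below 0 as deposited and 1 after centring, which moved this comparison by 0.11. It also depends on the probe set, since 8 of the 13 further ones had the sign of the chosen one there. On the other Mdh2 probe set, 1416478_a_at, all sDB3 arrays (14.34 to 14.45) lay above all sAB arrays (14.25 to 14.30), a difference of 0.11 (limma adjusted p = 0.213), and the other Cs probe sets gave 0.05 and 0.16.

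Idh3a gave a bigger difference on its other probe sets. Its brightest, 1432016_a_at (mean 13.80), carries the values above. On 1422500_at (mean 10.84) the arrays had 10.72, 10.68 and 10.47 in DB3, 10.57, 10.34 and 10.53 in AB, 10.85, 10.75 and 10.89 in sDB3 and 11.51, 11.39 and 11.42 in sAB. Its fall in AB against sAB was 0.96 ± 0.089, 1.95-fold (limma adjusted p = 9.78e-05 over 17817 probe sets). On 1422501_s_at (mean 11.33) the fall was 0.81 ± 0.11 (adjusted p = 0.000774). Both also fell in sDB3 against sAB, by 0.61 (adjusted p = 0.00223) and 0.47 (adjusted p = 0.018), which the brightest did not (-0.09). In AB against sDB3 they gave -0.35 (adjusted p = 0.0223) and -0.34 (adjusted p = 0.0533). The sAB arrays thus lay far above the other 9 on these probe sets, and which transcripts each probe set reads was not examined. The fourth probe set of Idh3a stayed at 2.23 to 2.45 and was not tested.

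**Figure D3:**
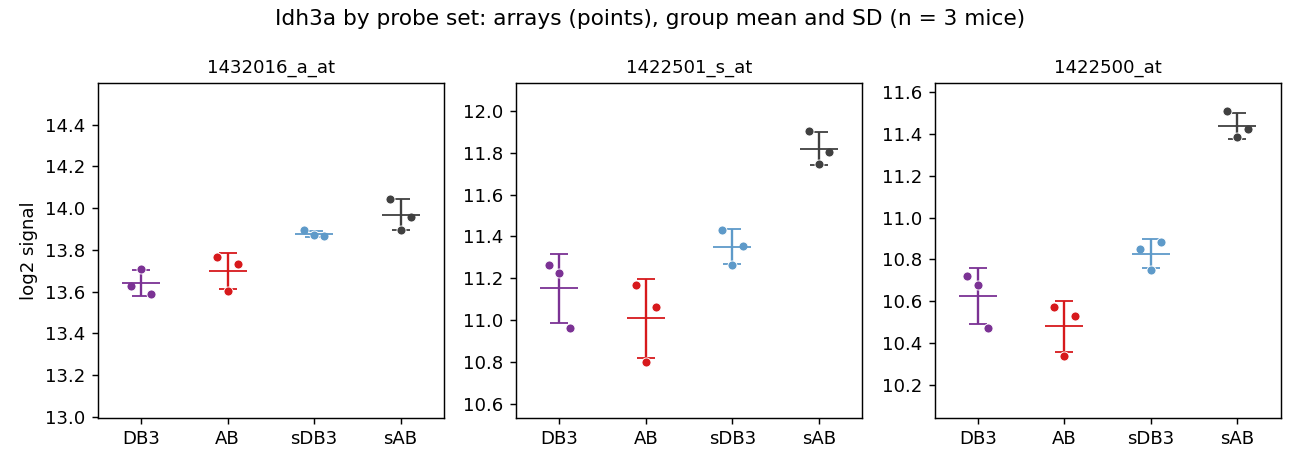
Log2 signal (y axis) of Idh3a on its 3 tested probe sets, by array (points) with group mean and SD (n = 3 mice); each panel has its own range of levels. The AB to sAB gap is 0.27 on 1432016_a_at, 0.81 on 1422501_s_at and 0.96 on 1422500_at.

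The further probe sets of the other enzymes also differed from the chosen ones. The dim Sdha probe set 1433293_at (mean 4.55) gave -0.70 in DB3 against sDB3, where the chosen one gave 0.07, and Dlst 1431011_at (mean 6.63) gave -0.25 in AB against sAB, where the chosen one gave 0.09. Over all members, 13 further probe sets were tested, and in AB against sAB 11 of them had the sign of the chosen one and 3 passed, all lower. The second Idh3g probe set, 1416788_a_at, fell by 0.27 in AB against sAB (limma adjusted p = 0.0148) and by 0.26 in AB against sDB3 (adjusted p = 0.0198). The second bright Sdha probe set, 1426688_at, gave -0.20 in AB against sAB (adjusted p = 0.0989), -0.26 in AB against sDB3 (adjusted p = 0.0444) and 0.24 in DB3 against AB (adjusted p = 0.087). A Cs probe set, 1422578_at, fell by 0.24 in AB against sDB3 (adjusted p = 0.0286). In DB3 against AB only 6 of the 13 had the sign of the chosen probe set, and none passed. Of DB3 against sDB3, 10 of 13 had that sign and none passed.

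The other enzymes and subunits of the cycle showed 4 of 8 lower and 0 higher in AB against sAB, where 7.69% of all genes were lower. Their median was -0.19. The GTP-specific ligase subunit Suclg2 fell by 0.38 ± 0.11 (limma adjusted p = 0.0367), the shared ligase subunit Suclg1 by 0.25 (0.0286) and Dld, the dehydrogenase shared by the 2-oxoglutarate and pyruvate complexes, by 0.29 (0.0241). Suclg2 had 12.52, 12.34 and 12.54 in DB3, 12.14, 11.72 and 11.69 in AB, 12.34, 12.28 and 12.26 in sDB3 and 12.32, 12.16 and 12.21 in sAB. AB was lowest, as for Sdha and Idh3g, and Suclg2 also fell in AB against sDB3 (-0.45, adjusted p = 0.019) and rose in DB3 against AB (0.62, adjusted p = 0.00896). Suclg2 was the 1 of 8 to rise in DB3 against AB, where 4.04% of all genes were higher. The membrane anchor Sdhc rose in sDB3 against sAB (0.50, adjusted p = 0.00463), where it was 1 of 8 higher, and fell in AB against sDB3 (-0.27, adjusted p = 0.0429), where 2 of 8 were lower. Over all genes, 5.49% were higher in sDB3 against sAB and 4.69% lower in AB against sDB3. In DB3 against sDB3 0 of 8 passed in either direction, where 6.36% of all genes passed (Suclg1, with the lowest p, gave -0.23).

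Pyruvate enters the cycle through the pyruvate dehydrogenase complex, which its kinases switch off and its phosphatases switch on. Of 12 genes tested, 1 was higher and 1 lower in AB against sAB: the kinases Pdk2 (0.47, limma adjusted p = 0.00168) and Pdk1 (-0.40, adjusted p = 0.0331). Pdk2 was 12.78, 12.60 and 12.69 in DB3, 12.36, 12.24 and 12.17 in AB, 12.45, 12.56 and 12.53 in sDB3 and 11.83, 11.74 and 11.78 in sAB. It therefore fell in AB against sDB3 (-0.25, adjusted p = 0.0313) while it rose against sAB, and rose by 0.73 in sDB3 against sAB (adjusted p = 0.000302). Pdk1 was 11.26, 11.04 and 11.10 in DB3, 10.79, 10.31 and 10.41 in AB, 10.79, 10.60 and 10.75 in sDB3 and 10.91, 10.90 and 10.91 in sAB. Pdk1 rose in DB3 against AB by 0.63 (adjusted p = 0.00895), as did Pdk2 (0.43) and the catalytic subunit Pdha1 (0.33), 3 of 12 higher and 1 lower. Pdha1 (-0.34), Pdk2 and the phosphatase Pdp2 (-0.65) made 3 of 12 lower in AB against sDB3. In DB3 against sDB3 the acetyltransferase Dlat fell (-0.27, adjusted p = 0.0362), 1 of 12 lower and 0 higher, and in sDB3 against sAB 2 of 12 were higher and 1 lower (Pdhx, -0.29). Over all genes, 4.04% were higher in DB3 against AB and 5.49% in sDB3 against sAB. The share lower was 7.69% in AB against sAB, 4.69% in AB against sDB3, 0.997% in DB3 against sDB3 and 12.3% in sDB3 against sAB. Of the 10435 genes, 1256 were higher in AB against sAB and 534 lower in DB3 against AB.

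Enzymes that refill the cycle, shuttle its intermediates or act as its cytosolic counterparts passed in both directions. In AB against sAB 2 of 17 were higher and 2 lower, among them the mitochondrial malic enzyme Me2 (0.67, limma adjusted p = 0.000403), the cytosolic malic enzyme Me1 (-0.25) and the cytosolic isocitrate dehydrogenase Idh1 (-0.48). Me2 also rose in AB against sDB3 (0.77, adjusted p = 0.000323; 1 of 17 higher, 3 lower) and in DB3 against sDB3 (0.52, adjusted p = 0.0131; 2 of 17 higher, 0 lower). Me2 had 5.91, 5.75 and 5.97 in DB3, 6.07, 6.14 and 6.19 in AB, 5.43, 5.33 and 5.31 in sDB3 and 5.36, 5.53 and 5.50 in sAB, so that all DB3 and AB arrays lay above all sham arrays. Pyruvate carboxylase Pcx rose in DB3 against sDB3 (0.43), DB3 against AB (0.62) and sDB3 against sAB (0.44). Idh1 (-0.46, adjusted p = 0.0227) and Slc25a12 (-0.26, adjusted p = 0.0189) were among the 3 lower in AB against sDB3. In DB3 against AB 3 of 17 were higher and 0 lower: Pcx, Me3 (0.42) and Idh1 (0.50). Idh1 averaged 9.79 in AB, against 10.29 in DB3, 10.26 in sDB3 and 10.27 in sAB. In sDB3 against sAB 2 were higher, Pcx and Got2 (0.26), and 0 lower. Over all genes, the share higher was 17.3% in AB against sDB3, 5.37% in DB3 against sDB3, 4.04% in DB3 against AB and 5.49% in sDB3 against sAB. The share lower was 7.69% in AB against sAB and 4.69% in AB against sDB3. Of the 10435 genes, 1256 were higher in AB against sAB.

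Of 10 genes listed as assembly or modifying factors of the cycle's enzymes, 4 were lower and 0 higher in AB against sAB. Over all genes, 7.69% were lower there. Sdhaf2, which helps attach the flavin to Sdha, gave -0.28 (limma adjusted p = 0.0222) and the mitochondrial deacetylase Sirt3 -0.29 (adjusted p = 0.017). Mcur1, at -0.35 (adjusted p = 0.00578), regulates the mitochondrial calcium uniporter and is no assembly factor. It was on the list all the same, and is counted among these 4 and among the 6 of sDB3 against sAB. In sDB3 against sAB 6 of 10 were lower, where 12.3% of all genes were, with Sdhaf2 at -0.38 and the lipoyltransferases Lipt1 at -0.63 and Lipt2 at -0.49. Centring cut the genes lower there to 481, against 1288 as deposited. Sirt5 lay above 0 in both comparisons, at 0.07 and 0.10, and Lias at 0.03 in sDB3 against sAB. In AB against sDB3 Sdhaf3 rose (0.33), 1 of 10, where 17.3% of all genes were higher, and none of the 10 fell. In DB3 against sDB3 and in DB3 against AB 0 of 10 passed by limma, where 6.36% and 9.16% of all genes passed. Of 10 regulators of mitochondrial biogenesis, 0 passed in AB against sAB and in DB3 against AB, where 19.7% and 9.16% of all genes passed. The coactivator Ppargc1a fell in AB against sDB3, by 1.23 ± 0.27 (adjusted p = 0.0107), 1 of 10 lower, where 4.69% of all genes were lower. It had 10.33, 10.15 and 10.19 in DB3, 9.91, 9.60 and 9.74 in AB, 11.68, 11.01 and 10.25 in sDB3 and 10.37, 10.28 and 10.16 in sAB, so the sDB3 arrays spread widely. In DB3 against sDB3 the regulator Nrf1 rose (0.42) and the mitochondrial DNA factor Tfam fell (-0.30), and in sDB3 against sAB Ppargc1b rose (0.47). Over all genes, 5.37% were higher and 0.997% lower in DB3 against sDB3, and 5.49% were higher in sDB3 against sAB.

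The genes most like the enzymes were sought by the root mean square distance over the 12 arrays between a gene's centred log2 values and the members' mean profile. The nearest 10 of 10426 were Ndufa9 (0.0319), Sdhb (0.0323), Pdf (0.0334), Ndufs3 (0.0346), Cul1 (0.0351), Uqcrfs1 (0.0357), Ndufs1 (0.0363), Bsg (0.0369), Isca1 (0.037) and Ndufa13 (0.0376). Ndufa9, Ndufs3, Ndufs1 and Ndufa13 are subunits of respiratory complex I, Sdhb is the iron-sulfur partner of Sdha and Uqcrfs1 belongs to complex III. The median over all other genes was 0.199, and a gene that hardly varies is near any flat profile. The members themselves lay at 0.059 (Idh3b) to 0.163 (Ogdh) from their own mean, farther than these 10. None of the 10 passed in AB against sAB, where 19.7% of all genes did, at differences from -0.17 (Ndufs1) to -0.10 (Ndufa9). As the 10 were picked for nearness over these same arrays, differences close to the members' mean follow from the choice.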

How the data were processed

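Total RNA (3 µg a mouse, RNeasy columns) was hybridised to Affymetrix arrays as biotin-labelled cRNA, per the labels' protocols. The deposited log2 values, 1 per probe set, were made by the authors with GCRMA, per the submitters' processing notes. No version or setting of it is given in the sources used here. The platform annotation, which can be dated, named 34945 of 45101 probe sets with 1 symbol. Those with several (932) or none (9160) and 64 controls were left out.

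A probe set was tested where log2 was above 4 on at least 3 arrays. This left 17817 probe sets and 10435 genes, each read from its brightest probe set. Limma 3.58.1 in R 4.3.3 fitted 1 model of the 4 groups, after the per-gene analysis of variance of the series, with 8 residual and 2.68 prior degrees of freedom. Two-sided p-values were adjusted over all genes (Benjamini-Hochberg) and called at 0.05. With 3 against 3 arrays the smallest p of an exact permutation test is 0.1. The number of arrays limits the precision, and the p-values set group differences against the spread between these mice, shared over the 4 groups. The script was tested on simulated data.

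The members, the comparison of AB with sDB3, the gene lists and the alternatives were chosen with earlier results of these data known. All members are named. Of each list, genes to name were taken from up to 3 with the lowest adjusted p past the threshold in a comparison. Where none passed, the 1 with the lowest p was taken. Not every such gene is given for every comparison, and Sirt5 and Lias are given outside this rule. The 10 genes nearest the members' profile are also named. No block was fitted, since the labels give no batch or pairing. Promoters came from RefSeq (GRCm38.p6).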

Additional observations from a re-analysis of the deposited data

Results flagged for a closer look

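A pair of genes around the cycle differed in their effects between the arms, by limma's test of DB3 against sDB3 minus AB against sAB. They were 1 of 12 in the pyruvate dehydrogenase list and 1 of 10 in the list of assembly and modifying factors. No gene of the other lists passed, and 6.04% of all genes did. Pdk1, a kinase of pyruvate dehydrogenase, had a difference of 0.82 ± 0.16 (adjusted p = 0.0227). Its value was 0.42 in DB3 against sDB3 (adjusted p = 0.0574) and -0.40 in AB against sAB (adjusted p = 0.0331). Lipt1, a lipoyltransferase, had 0.64 ± 0.16 (adjusted p = 0.045). Its value was -0.44 in AB against sAB and 0.21 in DB3 against sDB3 (adjusted p = 0.28). Lipt1 averaged 7.59 in sAB, against 7.17 in DB3, 7.15 in AB and 6.96 in sDB3. The sAB arrays also had the higher BioC signal, and its part in the Lipt1 value was not tested.

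The dimmer probe sets of Idh3a met the same test over all probe sets, 1422500_at at 0.76 ± 0.13 (adjusted p = 0.0109) and 1422501_s_at at 0.61 ± 0.16 (adjusted p = 0.0482), while the brightest, 1432016_a_at, gave 0.03. On both, the sAB arrays lay above all others, and the sAB arrays also had the higher BioC signal; the part of that in these values was not tested.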

How the results depend on the processing

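With 3 arrays a group, a count of 9 members moves easily, and no cause of a change below was tested. The share of all genes passing is not set beside the members' count for each setting. A moved count therefore does not show a change particular to these enzymes. Averaging probe sets kept the count at 1 in DB3 against AB and in sDB3 against sAB but changed the gene, with Sdha (0.18) and Ogdh (0.20) no longer passing. Members passing in AB against sAB numbered 3 as reported, 6 with no dim filter, 5 with a filter at log2 above 6, 6 with trend and robust moderation and 1 in a fit of only the groups compared. In AB against sDB3 they numbered 1 as reported, 0 with no dim filter, 2 with the filter at 6, 3 when probe sets were averaged per gene, 5 after median centring, 3 with trend and robust moderation and 0 with only the groups compared or with atrial markers as a covariate, which was added after seeing the data (Sdha -0.28, adjusted p = 0.0549). In DB3 against AB they numbered 1, against 0 with no dim filter, 3 with trend and robust moderation and 0 with only the groups compared. In DB3 against sDB3 they numbered 0, against 2 after centring and 1 with trend and robust moderation. In sDB3 against sAB they numbered 1, against 2 with no dim filter, 2 after centring, 3 with trend and robust moderation and 0 with only the groups compared or the atrial covariate. The difference of effects had 0, against 1 with probe sets averaged and 2 with trend and robust moderation, which also gave 7 in the F test against 4.

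Over all genes, DB3 against sDB3 had 664, against 323 with no dim filter, 188 after quantile normalization, 0 with only the groups compared and 203 with the atrial covariate. DB3 against AB had 956, against 629 with only the groups compared. sDB3 against sAB had 1861, against 571 with only the groups compared and 895 with the covariate. The difference of effects had 630, against 338 with no dim filter and 138 with the covariate. Centring turned the split of higher and lower genes from 560 and 104 to 127 and 348 in DB3 against sDB3, from 573 and 1288 to 1058 and 481 in sDB3 against sAB, from 1256 and 802 to 1086 and 1075 in AB against sAB, and from 360 and 270 to 153 and 430 in the difference of effects. The Sdha probe set 1433293_at, with a mean of 4.55, reversed the rise in DB3 against AB (-0.075).

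Leaving out each array gave 0 to 4 members in AB against sAB (1139 to 2119 genes), 0 to 2 in AB against sDB3 (1124 to 2354), 0 to 1 in DB3 against AB (365 to 1031), 0 to 0 in DB3 against sDB3 (170 to 535), 1 to 1 in sDB3 against sAB (967 to 1945), 0 to 1 in the difference of effects (152 to 567) and 2 to 4 in the F test (2727 to 3746). Over these omissions, 618 of 648 single values kept their side of the threshold, 23 lost the call and 7 gained one. No called value reversed, and 20 values changed sign without being called. No paired analysis was possible because the labels give no replicate numbers shared between groups.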

Other observations

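The remaining marker lists were read for what else the ventricle samples held. Monocyte and macrophage genes averaged 9.26 to 9.35 in DB3, 9.26 to 9.47 in AB, 9.01 to 9.29 in sDB3 and 9.22 to 10.3 in sAB. The highest value belonged to 1 sAB array, and 1 of 7 genes was lower in sDB3 against sAB. Of the blood list, Alas2 alone was tested and passed in no comparison of 2 groups; Hba-a1 stayed at the floor on all 12 arrays. Of the adipose list, 2 genes were tested and 0 passed by limma in those comparisons, and Ucp1 stayed at the floor on all 12 arrays. Of the skeletal muscle list, 2 were tested, Ckm and Mylpf. The dim Mylpf (3.97 to 4.79) was lower in AB against sAB, where 7.69% of all genes were. The bright Ckm (14.3 to 14.6) was higher in sDB3 against sAB, where 5.49% of all genes were. Myh4, Myh1 and Tnnt3 stayed at 2.23 to 2.60 and Tnni2 at 3.78 to 4.29, and none of these was tested. Of the atrial list, 4 were tested and 1 was higher in DB3 against sDB3, in AB against sDB3 and against sAB, and 1 was lower in DB3 against AB. Nppa had 13.6 to 14.3 in DB3, 14.9 to 15.2 in AB, 12.9 to 13.1 in sDB3 and 12.6 to 12.8 in sAB. Myl7, Myl4 and Sln had DB3 arrays that overlapped every other group, unlike Nppa. The share of atrial tissue was not measured. Bmp10 stayed at the floor on all 12 arrays.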
